A study of Mus musculus with 4 samples.

Results

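Promoter H3K4me3 was examined at 9 activity-regulated genes of the mouse hippocampus, the transcription factor genes Egr1, Egr2, Egr3, Egr4, Nr4a1, Nr4a2, Nr4a3 and Npas4 and the synaptic gene Arc. The genes were taken by name, not by any measured value, and are 9 of the 21938 protein-coding genes of the GENCODE M21 annotation. A gene counted as marked if a peak came within 1 kb of any of its annotated transcription start sites, and peaks within 1 kb of each other were joined into a domain. H3K4me3, histone H3 trimethylated at lysine 4, had been mapped by chromatin immunoprecipitation and sequencing of frozen tissue from adult male B6CASTF1/J mice aged 2 months, which are hybrids of the C57BL/6J and CAST/EiJ strains. The tissue label reads layer of hippocampus and does not say which layer. There were 2 tissue pools, pool C (biological replicate 2) and pool D (biological replicate 1), and each was made from 7 biosamples. The labels name no treatment and give both pools 1 donor entry, so the spread between pools may be partly technical. Each pool had 2 technical libraries with fragments in the size range 200 to 600, but these shared 1 alignment, so each pool gave 1 peak list. A replicated list, which the authors derived from both pools, was the main list.

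These genes are classed as immediate early genes: in neurons, calcium entry during synaptic activity switches them on within minutes without new protein synthesis, through factors such as CREB, SRF and MEF2 that are already in the nucleus. The 4 Egr proteins are zinc-finger transcription factors that bind GC-rich sites, and Egr1, Egr2 and Egr3 are held in check by the Nab co-repressors. The 3 Nr4a proteins are orphan nuclear receptors that can bind DNA as monomers, and Nr4a1 and Nr4a2 also pair with retinoid X receptors. Npas4 is a bHLH-PAS factor that responds to depolarisation in neurons and works with an Arnt partner. Arc is not a transcription factor: its protein acts at synapses, where it promotes removal of AMPA receptors, and in rodent hippocampus Egr1 and Arc are standard marks of recently active neurons. H3K4me3 surrounds the start sites of genes that are active or ready for use, and the width of its domain is often read together with its height. No RNA was analysed here.

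The promoter sequences are shown because promoters of immediate early genes are known for elements bound by CREB and SRF, and because the peaks described below cover some of these bases and not others. Of the 9 genes, 6 were matched in the RefSeq promoter table (GRCm38.p6). Egr1, Egr3 and Arc were not matched. Each line gives the 250 bases before 1 RefSeq start site, in the direction of transcription, as in the reference genome and not as read from these hybrid mice. Capitals mark the cyclic AMP response element half-site TGACG or its reverse complement CGTCA, a CArG box (the site of SRF), and the TATA motifs TATAAA and TATATAA, on either strand. The stretches were chr10:67537619-67537868 on the plus strand for Egr2, chr6:85513590-85513839 on the minus strand for Egr4, chr15:101266596-101266845 on the plus strand for Nr4a1, chr2:57124004-57124253 on the minus strand for Nr4a2, chr4:48045055-48045304 on the plus strand for Nr4a3 and chr19:4989972-4990221 on the minus strand for Npas4.
Egr2: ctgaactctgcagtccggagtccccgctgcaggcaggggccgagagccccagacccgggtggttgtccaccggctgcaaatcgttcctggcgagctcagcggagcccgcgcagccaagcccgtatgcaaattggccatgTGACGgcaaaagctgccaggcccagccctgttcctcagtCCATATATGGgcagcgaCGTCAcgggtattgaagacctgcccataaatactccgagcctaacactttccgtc
Egr4: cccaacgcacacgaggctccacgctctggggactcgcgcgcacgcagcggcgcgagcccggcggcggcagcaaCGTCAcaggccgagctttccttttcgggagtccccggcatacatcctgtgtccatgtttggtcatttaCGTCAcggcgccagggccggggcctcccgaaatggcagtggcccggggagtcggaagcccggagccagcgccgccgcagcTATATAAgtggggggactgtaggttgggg
Nr4a1: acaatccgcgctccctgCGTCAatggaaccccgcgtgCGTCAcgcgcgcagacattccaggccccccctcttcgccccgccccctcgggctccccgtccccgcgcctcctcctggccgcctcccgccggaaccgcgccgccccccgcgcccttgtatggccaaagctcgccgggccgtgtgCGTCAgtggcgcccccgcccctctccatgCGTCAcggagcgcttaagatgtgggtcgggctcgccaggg
Nr4a2: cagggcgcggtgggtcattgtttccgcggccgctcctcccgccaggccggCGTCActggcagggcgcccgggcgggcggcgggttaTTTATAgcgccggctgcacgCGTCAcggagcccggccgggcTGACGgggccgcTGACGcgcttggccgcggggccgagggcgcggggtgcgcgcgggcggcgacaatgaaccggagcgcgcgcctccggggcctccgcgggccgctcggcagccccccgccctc
Nr4a3: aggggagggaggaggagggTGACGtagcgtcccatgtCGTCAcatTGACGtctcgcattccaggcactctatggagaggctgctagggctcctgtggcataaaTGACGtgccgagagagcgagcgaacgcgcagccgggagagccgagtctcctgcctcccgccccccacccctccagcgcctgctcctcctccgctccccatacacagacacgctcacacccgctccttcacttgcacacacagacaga
Npas4: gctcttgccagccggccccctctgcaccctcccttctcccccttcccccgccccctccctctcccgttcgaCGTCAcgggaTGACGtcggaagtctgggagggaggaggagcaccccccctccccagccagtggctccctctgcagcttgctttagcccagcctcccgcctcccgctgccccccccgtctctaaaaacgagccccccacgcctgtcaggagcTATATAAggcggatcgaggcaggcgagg
The 6 genes have 10 such windows in the table, 5 of them for Egr2 and 1 for each other gene, and the Egr2 window shown was chosen with the motif matches in view. Of the 10 windows, 8 held at least 1 TGACG half-site, as did 17.7% of the 32817 windows in the table. In Egr2 this was so for 3 of the 5 windows. These 3 overlap and hold the same 2 half-sites, so the count of 8 includes those sites more than once. Nr4a1, Nr4a2 and Nr4a3 held 4 half-sites each, Egr4 and Npas4 held 2 each, and the Egr2 window shown held 2. Windows with 2 or more made up 3.90% of the table and windows with 3 or more 0.689%. The full palindrome TGACGTCA, which contains the half-site on both strands, was in 1.55% of windows and in none of these 6 genes. A CArG box was in 1.47% of windows and, of the 6 genes, in Egr2, where it lay 72 to 63 bases before the start shown. TATATAA was in 3.04% of windows and lay 29 to 23 bases before the start of Egr4 and 28 to 22 bases before that of Npas4. TATAAA was in 12.4% of windows and, read on the opposite strand, in Nr4a2. The Egr binding motif GCGGGGGCG was in 2.57% of windows and, on the opposite strand, in Nr4a1 (not in capitals). The Nr4a monomer motif AAAGGTCA was in 1.34% of windows and in none of the 6 genes. TATATAA was added to the motifs with the sequences in view, and the matches describe letters, not bound sites.

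All 9 genes carried H3K4me3 at a start site in pool C, in pool D and in the replicated list. Of all protein-coding genes, 66.9% did in pool C, 64.3% in pool D and 65.5% in the replicated list, so the mark itself is common. The domains of the 9 genes were wide, while the median of their signal was near that of all marked genes. Their widest domains had a median breadth of 4713 bp in pool C against 2400 bp over all marked genes. In pool D the median was 4070 bp against 2034 bp, and in the replicated list 4563 bp against 2234 bp. Every one of the 9 lay above the median breadth of all marked genes in each of the 3 lists. The ratio of the medians was 1.96 in pool C, 2.00 in pool D and 2.04 in the replicated list.

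The median height of the mark over the 9 genes lay close to that of all marked genes, but single genes were spread widely around it. The authors' signal value of each gene's strongest promoter peak had a median of 27.5 in pool C against 28.0 over all marked genes. It was 16.8 against 18.2 in pool D and 21.5 against 22.5 in the replicated list. Above the median of all marked genes lay 3 of the 9 in pool C, 4 in pool D and 4 in the replicated list. Percentile ranks of signal ran from 19.3 to 88.0 in pool C, 25.7 to 78.0 in pool D and 20.6 to 84.8 in the replicated list. At Nr4a1 and Nr4a2 the strongest peak lay outside the widest domain in each list. The signal value is on a scale set by the authors' peak caller and serves here to rank genes within 1 list. In bulk tissue a weaker signal could come from fewer cells that carry the mark or from less mark per cell, and these cannot be told apart. Domains of 5 kb or more were found at 4 of the 9 genes in pool C (9.46% of all marked genes), 3 in pool D (4.76%) and 4 in the replicated list (6.96%). The 4 were Egr1, Egr3, Nr4a1 and Nr4a3, and Nr4a1 was the one missing in pool D. At this threshold the nearest values in the replicated list were 5005 bp for Egr1, just inside, and 4563 bp for Nr4a2, just outside.

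**Figure D1:**
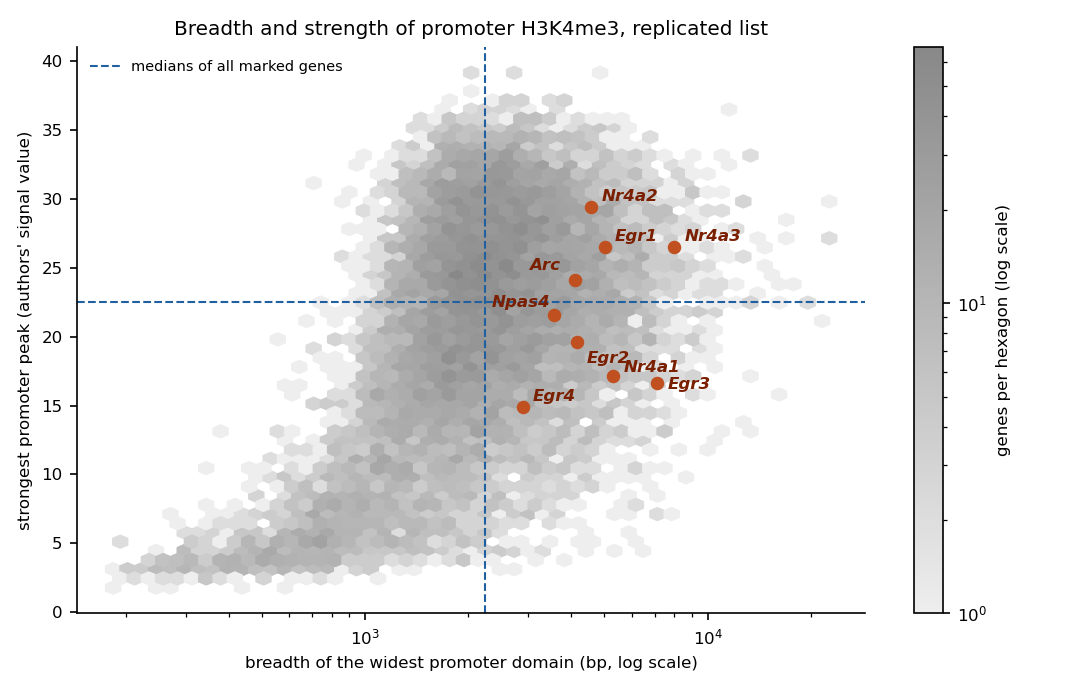
Breadth of the widest promoter domain (bp, log scale) against the authors' signal value of the strongest promoter peak for the 14369 marked protein-coding genes of the replicated list, with grey hexagons for all genes and orange points for the 9 genes. All 9 points lie right of the median breadth of 2234 bp, and 4 of them lie above the median signal of 22.5. At Nr4a1 and Nr4a2 the breadth is that of the inner domain and the signal that of the narrower domain at the 5′ end. The inner domain itself had a signal of 13.1 at Nr4a1 and 19.1 at Nr4a2.

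The order of breadth in the replicated list was Nr4a3, Egr3, Nr4a1, Egr1, Nr4a2, Egr2, Arc, Npas4 and Egr4. Neighbours in that order were separated in both pools, with no overlap of their pool values, for Nr4a3 over Egr3, Egr3 over Nr4a1, Egr1 over Nr4a2 and Arc over Npas4. The values of the pools overlapped for Nr4a1 and Egr1, for Nr4a2 and Egr2, for Egr2 and Arc, and for Npas4 and Egr4. The order within these pairs thus did not hold beyond the spread between pools. Within each pool Nr4a2 was still wider than Egr2, with 4713 against 4166 bp in pool C and 4075 against 4070 bp in pool D. Npas4 was likewise wider than Egr4, with 3592 against 2935 bp in pool C and 2513 against 2491 bp in pool D. The order was reversed in pool D for Nr4a1 and Egr1 and in pool C for Egr2 and Arc. With n = 2 pools the spread is known only roughly.

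**Figure D2:**
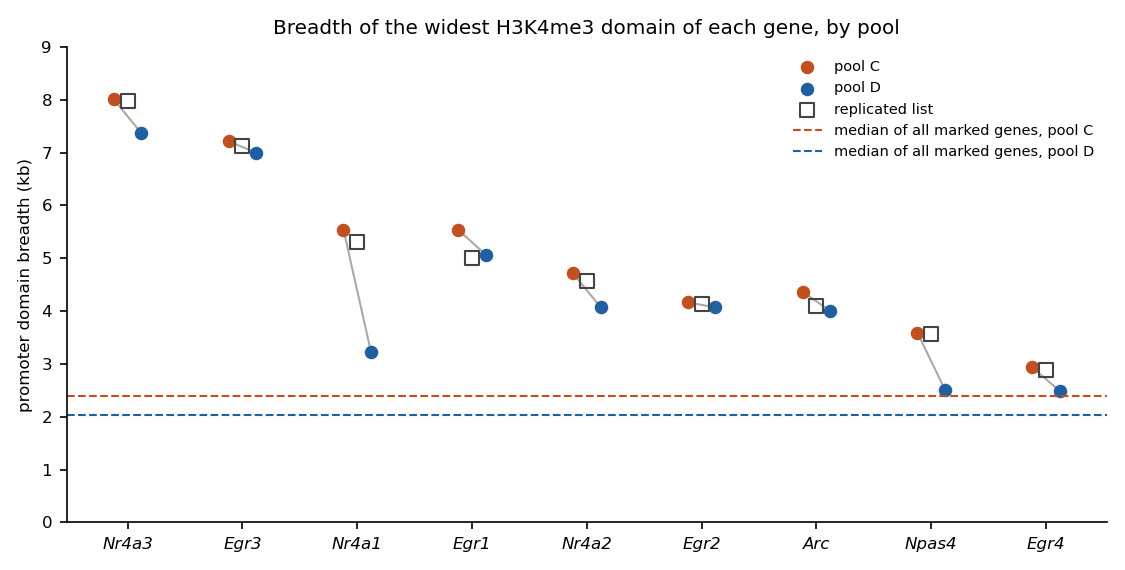
Breadth of the widest H3K4me3 domain (kb) of each of the 9 genes in pool C (orange), pool D (blue) and the replicated list (open squares), with dashed lines at the medians of all marked genes in pool C (2400 bp) and pool D (2034 bp). Every gene lies above the median of its own pool, and the widest distance between pools is that of Nr4a1.

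The 4 Egr genes each carried 1 unbroken peak that began upstream of the gene and ran over its first exons, and they differed in where the peak was highest. Egr1 (ENSMUSG00000038418.7, chr18:34859823-34864984, plus strand), which is needed to maintain long-term potentiation in the dentate gyrus, carried a domain that measured 5540 bp in pool C, 5067 bp in pool D and 5005 bp in the replicated list. That is 5303.5 ± 334 bp over the pools (SD, n = 2), and it ran from 1043 bp upstream to 3961 bp downstream of the first start site in the replicated list. The domain covered 76.8% of the gene. Its signal was 34.7 in pool C, 19.4 in pool D and 26.5 in the replicated list, at the 70.9th percentile of marked genes in the replicated list. The summit lay 1180 bp downstream of the first start site in pool C and in the replicated list and 1523 bp downstream in pool D, each time in an untranslated exon. A second annotated start site lies 1384 bp into the gene, so the summit was nearer to this one.

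Egr2 (ENSMUSG00000037868.15, chr10:67535475-67542188, plus strand), better known for hindbrain patterning and for myelination by Schwann cells, had nearly the same domain in every list. Its breadth was 4166 bp in pool C, 4070 bp in pool D and 4144 bp in the replicated list, or 4118 ± 67.9 bp (SD, n = 2 pools). All 6 of its annotated start sites lay inside the domain, which began 139 bp upstream of the first of them. The summit was 2169 bp downstream of that first site in pool C and 2151 bp downstream in pool D, in an intron. The start site whose promoter is printed above lies 2394 bp into the gene, and its 250 bases with the CArG box and both half-sites were wholly inside the peak in all 3 lists. The signal was 27.5 in pool C, 14.2 in pool D and 19.6 in the replicated list, at the 36.7th percentile there.

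Egr3 (ENSMUSG00000033730.4, chr14:70077203-70082614, plus strand), a regulator of muscle spindle development that is also activity-regulated in neurons, combined one of the widest domains with a low signal. The domain measured 7216 bp in pool C, 6998 bp in pool D and 7132 bp in the replicated list (7107 ± 154 bp, SD, n = 2 pools), with a percentile rank of 98.2 for breadth. Its signal of 23.4 in pool C, 13.6 in pool D and 16.6 in the replicated list had a percentile rank of 25.2. The highest point was not at a start site but upstream of the gene, 2102 bp before the first start site in pool C, 2089 bp in pool D and 2088 bp in the replicated list. The domain therefore reached 2855 bp upstream and 4276 bp downstream in the replicated list and covered 79.0% of the gene.

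Egr4 (ENSMUSG00000071341.4, chr6:85511121-85513589, minus strand), the shortest of the 9 genes at 2469 bp, had the lowest value of the 9 for widest domain in every list, and for strongest peak in pool C and the replicated list. It spanned 2935 bp in pool C, 2491 bp in pool D and 2882 bp in the replicated list (2713 ± 314 bp, SD, n = 2 pools). Even so, 96.2% of the gene was covered in pool C, 81.0% in pool D and 95.7% in the replicated list. The signal was 17.5 in pool C, 15.3 in pool D and 14.9 in the replicated list, at the 20.6th percentile. The summit was 529 bp downstream of the only start site in pool C, in an intron, and 222 bp downstream in pool D, in a coding exon. It was also the gene with the densest CpG dinucleotides, 9.40 per 100 bp of its domain.

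**Figure D3:**
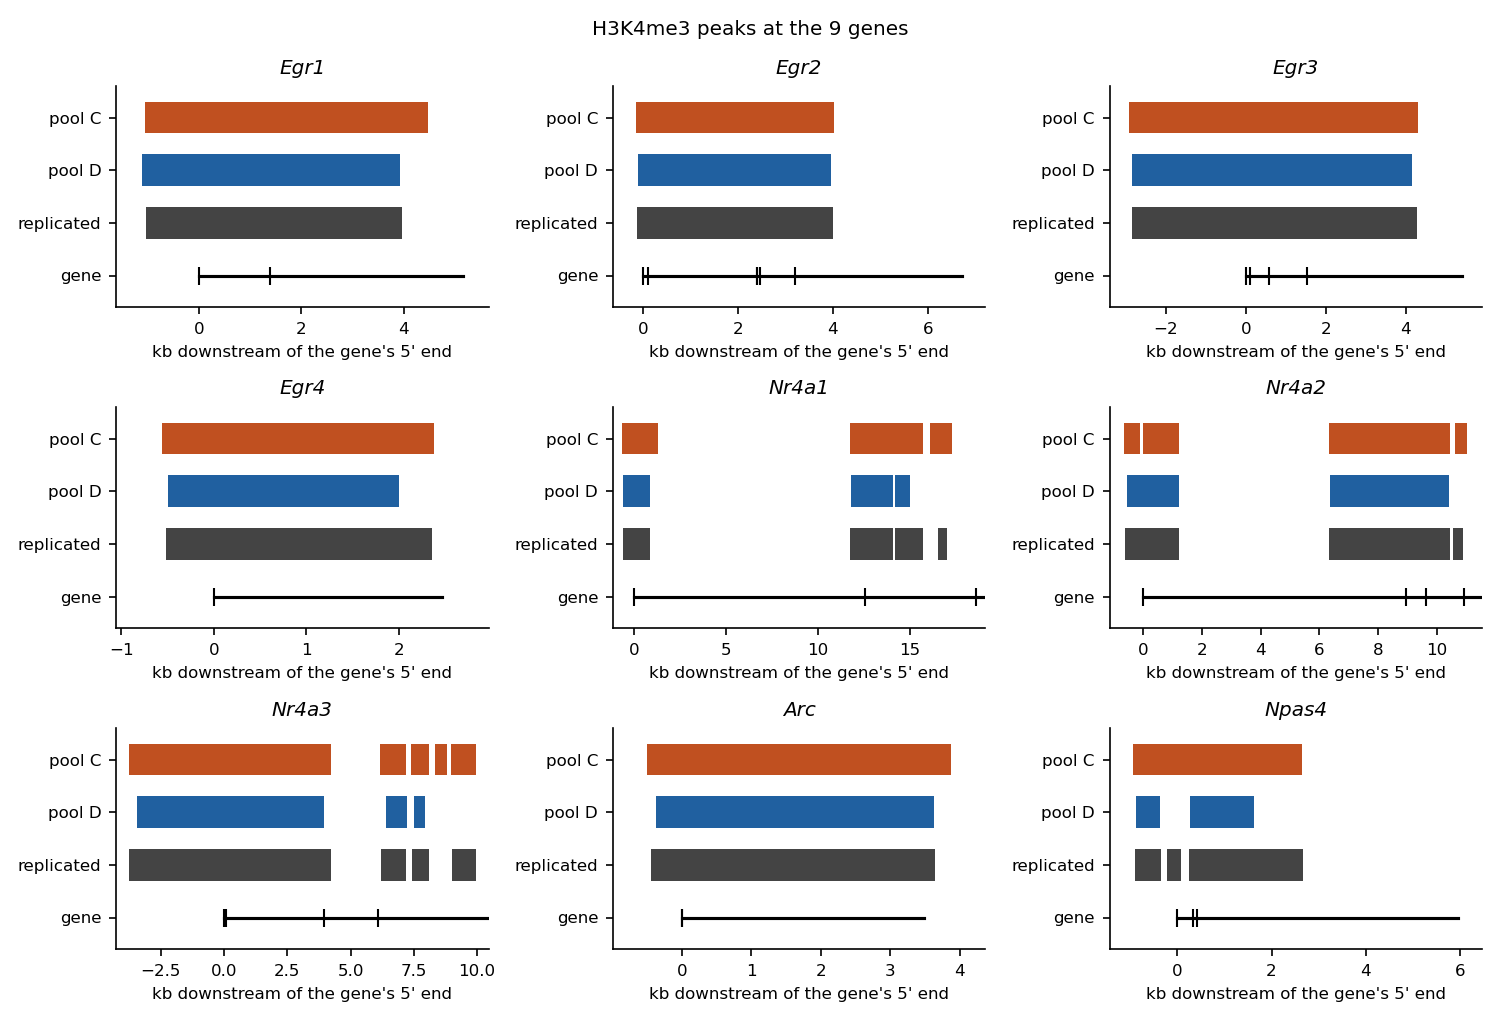
H3K4me3 peaks of pool C, pool D and the replicated list (bars) at the 9 genes, drawn to scale in kb downstream of each gene's 5′ end, with negative values upstream, the gene as a line that may run past the axis and its start sites as ticks. The Egr genes and Arc have 1 peak each, and the Nr4a genes have 2 separate domains under the 1 kb joining rule. The pool D peaks of Npas4 leave a gap of 646 bp over the first start site.

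The 3 Nr4a genes differed from the other 6 in having 2 separate domains each, in pool C, in pool D and in the replicated list. Among all marked genes, 11.3% had 2 or more domains in pool C, 8.99% in pool D and 9.88% in the replicated list. All 3 are longer than the other 6 genes, at 20527 bp for Nr4a1, 17174 bp for Nr4a2 and 41295 bp for Nr4a3. The 2 domains lie at start sites 12577 bp apart in Nr4a1 and 8965 bp apart in Nr4a2. In Nr4a3 they are split between start sites 3961 bp and 6095 bp into the gene. Whether gene length accounts for the number of domains was not tested.

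In Nr4a1 (ENSMUSG00000023034.7, chr15:101254269-101274795, plus strand), which encodes Nur77, the domain at the 5′ end of the gene was narrow and the one inside the gene broad. The upstream domain measured 1953 bp in pool C, 1458 bp in pool D and 1490 bp in the replicated list, with a signal of 21.3, 14.0 and 17.1 in that order of lists. The inner domain, at the start site 12577 bp downstream that has the promoter printed above, measured 5544 bp in pool C, 3227 bp in pool D and 5305 bp in the replicated list, or 4385.5 ± 1638 bp (SD, n = 2 pools). Its signal was lower, 14.0 in pool C, 10.1 in pool D and 13.1 in the replicated list. The inner domain is made of pieces. In the replicated list these were a peak of 2346 bp, one of 1494 bp with a signal of 6.34 and one of 485 bp with a signal of 2.57 and a −log10 q of 1.18, joined over gaps of 118 bp and 862 bp. Pool D had no such last piece, and without it the domain was below 5 kb. The last start site, 18592 bp into the gene, was not covered: the nearest peak ended 1323 bp away in pool C, 3569 bp in pool D and 1559 bp in the replicated list.

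Nr4a2 (ENSMUSG00000026826.13, chr2:57106830-57124003, minus strand), which encodes Nurr1 and is essential for midbrain dopamine neurons, held the strongest peak of the 9 genes. This peak, at the 5′ end, had a signal of 37.5 in pool C, 22.8 in pool D and 29.4 in the replicated list, at the 84.8th percentile there, and a −log10 q of 230, 114 and 161 in that order of lists. The domain around it was 1857 bp wide in pool C, 1753 bp in pool D and 1814 bp in the replicated list. In pool C this domain was split by a gap of 110 bp that contained the first start site, 2 bp from the nearest peak. In pool D and in the replicated list that site was inside a peak. The summit lay 352 bp downstream of the site in pool C, 207 bp in pool D and 243 bp in the replicated list. The broader domain lay inside the gene around the start site 8965 bp downstream, with 4713 bp in pool C, 4075 bp in pool D and 4563 bp in the replicated list (4394 ± 451 bp, SD, n = 2 pools). Its signal was 33.0 in pool C, 19.6 in pool D and 19.1 in the replicated list.

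Nr4a3 (ENSMUSG00000028341.9, chr4:48045153-48086447, plus strand), which encodes Nor1, had the widest domain of the set in each list. It measured 8007 bp in pool C, 7367 bp in pool D and 7972 bp in the replicated list (7687 ± 453 bp, SD, n = 2 pools), at the 98.9th percentile, with a signal of 31.7 in pool C, 19.2 in pool D and 26.5 in the replicated list. As at Egr3, the summit was upstream of the gene, 2085 bp before the first start site in pool C, 2100 bp in pool D and 2090 bp in the replicated list. The promoter printed above, with its 4 half-sites, was wholly inside the peak but not at its highest point. A weaker second domain lay just downstream of an inner start site 6095 bp into the gene. It spanned 3768 bp in pool C, 1566 bp in pool D and 3762 bp in the replicated list, with a −log10 q of 25.3, 12.7 and 17.3 in that order of lists. In the replicated list it was made of peaks of 1027 bp, 658 bp and 937 bp, joined over gaps of 220 bp and 920 bp. Pool D had a peak of 654 bp within the stretch of the last of these, too far away to be joined under the 1 kb rule. The domain never reached the start site itself: its edge was 86 bp away in pool C, 295 bp in pool D and 88 bp in the replicated list.

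The position of the summit differed among these genes. A strongest summit upstream of the first start site inside the domain was found at 2 of the 9 genes in the replicated list, Egr3 and Nr4a3, and at 15.7% of the 13908 marked genes with a start site in the domain. In pool C the inner domain of Nr4a2 also had its summit upstream, 251 bp before its first start site. A strongest summit over 1 kb downstream of that site was found at 2 of the 9, Egr1 and Egr2, and at 4.03% of those genes. The share of the domain that lay downstream of the first start site had a median of 79.2% over the 9 genes and 70.0% over all marked genes. No start site of another annotated gene lay in any domain of the 9 genes, those of Egr3 and Nr4a3 included. The same share over all marked genes is not given, so this describes the 9 genes alone.

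Arc (ENSMUSG00000022602.14, chr15:74669083-74672570, minus strand) was the 1 gene of the set whose domain covered it from first to last base, in pool C, in pool D and in the replicated list. Of all marked genes 2.13% were covered whole, and of those under 10 kb, the length class of Arc and 5 others of the set, 9.02%. The domain was 4366 bp wide in pool C, 4004 bp in pool D and 4090 bp in the replicated list (4185 ± 256 bp, SD, n = 2 pools), which is wider than the gene of 3488 bp. Its signal was 27.9 in pool C, 21.4 in pool D and 24.1 in the replicated list, at the 57.9th percentile. The summit lay 222 bp downstream of the first start site in pool C, 201 bp in pool D and 209 bp in the replicated list, in the coding exon. Over 50% of the gene was covered at 5 of the 6 genes under 10 kb, Egr1, Egr2, Egr3, Egr4 and Arc, and at 26.2% of the 3380 marked genes under 10 kb. The exception was Npas4.

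Npas4 (ENSMUSG00000045903.9, chr19:4984355-4990316, minus strand) was interrupted at its first start site in pool D and not in pool C. Pool C had 1 peak of 3592 bp across the promoter. Pool D had 2 peaks, of 1355 bp with a signal of 16.8 and of 512 bp with a signal of 3.78, and the gap of 646 bp between them held the first start site, 280 bp from the nearest peak. The replicated list had 3 peaks, of 2411 bp, 300 bp and 568 bp, with gaps of 167 bp and 118 bp. Joined, the domain measured 3592 bp in pool C, 2513 bp in pool D and 3564 bp in the replicated list (3052.5 ± 763 bp, SD, n = 2 pools), and it covered 44.6% of the gene in pool C, 27.4% in pool D and 44.6% in the replicated list. The summit did not move with this: it was 575 bp downstream of the first start site in pool C, 577 bp in pool D and 575 bp in the replicated list. Of the 250 bases printed above, which precede a start site 345 bp into the gene, 250 were inside a peak in pool C, 65 in pool D and 96 in the replicated list. Both half-sites, 179 to 175 and 169 to 165 bases before that start, were thus inside the peak in pool C and in the gap in pool D and the replicated list, while the TATATAA was inside a peak in all 3.

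Between the pools, the domains of all 9 genes were wider in pool C, as were those of 96.8% of the 14098 genes marked in both. The ratio of pool C to pool D had a median of 1.09 over the 9 genes, from 1.02 for Egr2 to 1.72 for Nr4a1, against a median of 1.18 over all genes, with quartiles of 1.09 and 1.32. Over 1.5 times as wide in pool C was 1 of the 9, Nr4a1, and 12.8% of all genes, and Npas4 came next at 1.43. Pool C also had the longer list, with 34193 peaks against 24690 in pool D, and sequencing depth is not known from the files. The cell type markers also differed between the pools. Microglia markers were marked at 5 of 5 genes in pool C and 0 of 5 in pool D. In pool C these domains were weak, with a median breadth of 390 bp (286 to 2263 bp) and signal percentile ranks of 1.02 to 4.73. Astrocyte markers had a median breadth of 4568 bp in pool C and 1862 bp in pool D over 5 of 5 marked genes each. Neuron markers had 8214 bp in pool C and 6716.5 bp in pool D over 10 of 10 each. Oligodendrocyte markers were marked at 5 of 5 genes in pool C and 4 of 5 in pool D, and endothelial markers likewise at 5 and 4. The part of list length or cell makeup in the breadth of the 9 genes was not tested.

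The 9 genes have 29 annotated start sites. Inside a peak were 26 of them in pool C, 24 in pool D and 26 in the replicated list, and 28 came within 1 kb of a peak in each list. In the replicated list, those outside were the last Nr4a1 site, the last Nr4a2 site, 10931 bp into the gene and 32 bp from a peak, and the inner Nr4a3 site. The peaks at these genes numbered 18 in pool C, 15 in pool D and 19 in the replicated list, and of these 2, 1 and 4, in that order, had a −log10 q under 5. The same shares over all marked genes are not given, so these counts describe the 9 genes alone. All 19 replicated peaks were present with the same ends in the list the authors called on both pools together. The same was true of 98.3% of all 27063 replicated peaks.

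Peaks away from any annotated start site had their summit within 20 kb of the 5′ end of 4 of the 9 genes in the replicated list, Egr2, Nr4a1, Nr4a2 and Npas4, and of 17.5% of all marked genes. Nr4a1 had the most, 3 peaks upstream with summits 7602 bp, 8079 bp and 13127 bp before the 5′ end and signals of 15.1, 10.6 and 11.1 in the replicated list. The same stretches were marked in both pools: the peak at 7602 bp spanned 1289 bp with a signal of 19.0 in pool C, where it ran into its neighbour, and 594 bp with a signal of 11.9 in pool D. These signals are of the size of the peak at the inner Nr4a1 promoter, 13.1. Egr2 had a weak peak of 622 bp, signal 3.55, next to the peak at the promoter of Ado. Under the 1 kb joining rule it is part of the Ado domain of 4243 bp. In pool C it was part of 1 peak of 4468 bp with Ado, and pool D lacked it. Nr4a2 had one of 315 bp, signal 2.52 and −log10 q 1.38, which pool D lacked. Another, 9443 bp from its nearest start site but with a summit 21254 bp from the 5′ end, spanned 1599 bp with a signal of 9.69. Its signal was 13.3 in pool C and 7.45 in pool D. Npas4 had one of 434 bp in its intron, signal 2.52 and −log10 q 1.38, which pool D lacked, and one of 608 bp 11828 bp upstream, signal 4.11. Within that distance of Arc a single such peak was found, in pool C alone, 6738 bp upstream with a signal of 3.51. Near Egr1 one was 9661 bp upstream in pool C alone, signal 4.93, and another 27863 bp downstream of the 5′ end had a signal of 23.2 in pool C, 10.9 in pool D and 18.6 in the replicated list. Just outside the promoter rule was a pool C peak of 576 bp in Nr4a2, signal 3.69, which ended 1111 bp from a start site. Pool D had a peak of 654 bp in an intron of Nr4a3, signal 3.43, that was not joined to the second domain.

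The base composition of the domains divided the genes. The domains of the 9 genes held a median of 255 CpG dinucleotides, against 96 over all marked genes, and 5.16 per 100 bp, against 4.25. Egr3 with 442 and Nr4a3 with 411 held the most. Per 100 bp, Egr4 with 9.40, Egr3 with 6.20 and Egr2 with 6.15 were high, whereas Nr4a1 with 2.98, Arc with 3.06 and Npas4 with 3.31 were below the median of all marked genes. Observed over expected CpG was likewise low in Nr4a1 (0.357), Arc (0.349) and Npas4 (0.426) against a median of 0.602 over all marked genes. Around the 5′ end, in the 500 bp on either side, the 9 genes had a median of 77 CpG against 60 over all marked genes. Below 60 were Npas4 with 36 and Egr1 with 42, and the other 7 ranged from 65 in Egr2 to 109 in Nr4a2. GC content of the domains had a median of 59.2% over the 9 genes and 53.7% over all marked genes. At Nr4a1 the low density is that of the inner domain, with 158 CpG over 5305 bp. This domain was not sparse throughout, since the 250 bases printed above, which lie inside it, held 34 CpG. Around the 5′ end, in the other domain, this gene had 83 CpG.

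The other immediate early genes resembled the 9 in breadth. All 18 of that list (Fos, Fosb, Fosl2, Jun, Junb and others such as Dusp1, Btg2 and Klf4) were marked in each list, with a median breadth of 4689.5 bp in pool C, 3910.5 bp in pool D and 4646.5 bp in the replicated list. Domains of 5 kb or more were found at 6 of the 18 in the replicated list. Fosl2, a Fos family member, with 7631 bp and Per1, a clock gene that is also induced by CREB, with 7053 bp were the widest. Fos itself had 4738 bp in pool C, 3918 bp in pool D and 4919 bp in the replicated list. The pathway that switches the genes on had narrower domains on the median. All 16 upstream signalling and transcription factor genes were marked, with a median of 3665.5 bp in pool C, 2955 bp in pool D and 3268 bp in the replicated list. Camk2a, the calcium-dependent kinase of excitatory synapses, had 13527 bp and Mef2c, an activity-regulated transcription factor, 7392 bp in the replicated list. Creb1 had 2951 bp and Srf 4840 bp.

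All 7 genes for partners and co-repressors were marked, with a median of 3326 bp in pool C, 2497 bp in pool D and 2598 bp in the replicated list. Nab2, which represses Egr1, Egr2 and Egr3, was the widest with 7446 bp in pool C, 7325 bp in pool D and 7413 bp in the replicated list, while Nab1 had 2311 bp in the replicated list. Rxrb, a retinoid X receptor, followed with 3540 bp. The activity-regulated effector genes were all marked too, 13 of 13, with a median of 3673 bp in pool C, 3227 bp in pool D and 3351 bp in the replicated list. Plk2, a kinase of synaptic scaling, with 7588 bp and Nptx1, a pentraxin that gathers AMPA receptors, with 7544 bp were the widest in the replicated list. Bdnf, the neurotrophin gene that Npas4 regulates, had 5551 bp. No difference between lists was tested, and the lists are given by their counts and medians beside the 65.5% of genes marked and the median of 2234 bp over all marked genes in the replicated list.

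**Figure D4:**
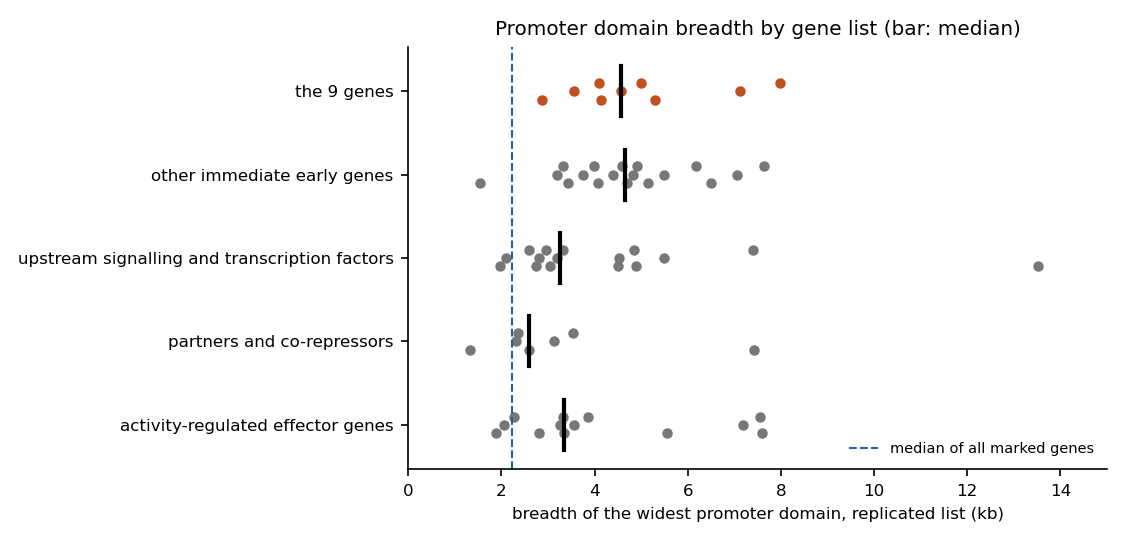
Breadth of the widest promoter domain (kb, replicated list) of each marked gene in 5 lists, with black bars at the list medians and a dashed line at the median of all marked genes. The medians are 4563 bp for the 9 genes, 4646.5 bp for other immediate early genes, 3268 bp for upstream genes, 2598 bp for partners and 3351 bp for effectors.

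The tissue label was checked against marker genes. All 10 hippocampal and forebrain neuron markers were marked in every list, with Grin2b, a glutamate receptor subunit, at 15960 bp and Prox1, a dentate granule cell factor, at 15493 bp in the replicated list, and 0 of 6 markers of liver, muscle, skin or germ cells were marked in any list. In the replicated list all 5 astrocyte, all 5 oligodendrocyte and all 5 endothelial markers were marked (widest Slc1a3 and Gja1, Mbp and Sox10, Flt1 and Cldn5), and 3 of 5 microglia markers, without Cx3cr1 and Aif1. Among markers of non-neuronal cells, Slc1a3 had 9752 bp in pool C, 7352 bp in pool D and 8050 bp in the replicated list. Mbp had 7096 bp in pool C, 2425 bp in pool D and 6097 bp in the replicated list. The genes of the set can be used by more than 1 of these cell types, and their source was not tested.

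For each gene, the protein-coding gene with the most similar pattern was taken over 4 percentile ranks, those of breadth and of signal in pool C and pool D, among 14097 other genes. Nr4a3 was matched most closely, by Kctd1 at a distance of 1.94 percentile points, and Egr2 least closely, by Sox5 at 4.71. The match was Ddit3 for Egr1 (2.25), Gpm6a for Egr3 (2.56), March9 for Egr4 (3.79), Rapgef3 for Nr4a1 (3.14), Adhfe1 for Nr4a2 (2.38), Cyfip2 for Arc (2.98) and Cep120 for Npas4 (4.34). None of these matches is among the 9 genes. Rapgef3, the match of Nr4a1, had 5853 bp in pool C and 3328 bp in pool D. Breadth in each pool was part of the matching, so this likeness follows from how the match was made.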

How the data were processed

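H3K4me3 ChIP-seq peak lists on mouse build mm10 (GRCm38) were used as the authors deposited them: 1 list each for pool C and pool D, 1 on both pools together, and 1 of replicated peaks. Lists were assigned to pools from the notes deposited with each library, which name the alignment behind each list. Each peak carries a signal value (enrichment on the authors' scale), a −log10 q value and a summit offset, all deposited by the authors. The name of the peak caller is not given in the sources used here. Signal values were used to describe and rank peaks within 1 list, never between lists. Sequencing depth is unknown from these files, so no counting interval is given.

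A gene was marked where a peak shared at least 1 bp with the 1 kb before or after a GENCODE M21 start site. Peaks up to 1 kb apart were joined, and breadth is that of the widest domain of a gene. Signal is that of the strongest promoter peak of the gene in any of its domains. Percentiles are among all marked protein-coding genes of the list. Values over the pools are mean ± SD (n = 2). No test was run, since the pools are replicates of 1 condition and genes are not replicates. Of each other list, the genes named by rule were the 2 widest and all unmarked ones, plus the closest match of each of the 9 genes. Fos, Creb1, Srf, Nab1 and Bdnf, the examples of the immediate early gene list, and the neighbour Ado fall outside that rule and were named after their values were seen. The members, the lists and the motifs were chosen with earlier results of these data known. The limits of 10 kb, 20 kb and 1.5 times were set with the values in view. In all 11 alternatives were tried, which changed the list, the pool, the q threshold, the window, the start sites, the overlap or the joined gap. Values were computed in Python 3.11.15 and drawn with Matplotlib 3.10.9. The joining of peaks and the assignment of domains to genes were tested on simulated peaks, and the ranking was not.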

Additional observations from a re-analysis of the deposited data

How the results depend on the processing

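All 9 genes were marked under 8 of the 9 alternatives in which this count was recomputed, and 8 were marked where the summit had to lie inside the window (Egr3 dropped out). It was not recomputed for the joined gap. Their median breadth of 4563 bp became 4097 bp with a −log10 q of at least 5, 4090 bp with the 5′ end of each gene only and 4097 bp with no gap closed, and ran from 4070 to 4713 bp with each pool alone. Genes with a domain of 5 kb or more numbered 4, and 2 with the summit inside the window. They numbered 3 in pool D alone, with the stricter q, with the 5′ end only and with no gap closed, and 5 with gaps of 3 kb closed. The whole-gene count stayed at 1, and the median ratio of pool C to pool D ran from 1.09 to 1.17. Single genes moved by over 1.5 times as follows. Nr4a1 had 3227 bp in pool D alone, 1490 bp with the 5′ end only and 2346 bp with no gap closed. Nr4a2 had 1814 bp with the 5′ end only, Nr4a3 had 3762 bp with the summit inside the window and 13683 bp with gaps of 3 kb closed, and Npas4 had 5809 bp with gaps of 3 kb closed. The 13683 bp of Nr4a3 join its 2 domains into 1, so its 2 separate domains did not hold at that gap. The number of domains per gene was not otherwise recomputed. No paired analysis was possible because each pool gave 1 list and the results come from no test. Depth is unknown, and whether weak peaks and domain edges would hold at another depth was not tested.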
